A study of Mus musculus with 4 samples.

Results

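A set of 8 marker and regulator genes of the serosal lining, the splanchnic mesoderm and the spleen rudiment were followed across 4 organ primordia of the mouse embryo: Wt1, Msln, Upk3b, Upk1b, Tcf21, Osr1, Osr2 and Tlx1. They were found as the non-control probes of the arrays whose accession maps to these symbols, which gave 9 probes for 8 of the 16995 genes with a symbol. Osr1 had 2 probes and every other gene had 1. Lung, esophagus, stomach and intestine were dissected from embryos of the ICR mouse, an outbred stock, at E11.5, the day counted from the vaginal plug, and the labels name no mutation and no treatment in any of them. The stomach sample is written "gustric" in the labels, and the extraction text of all 4 samples speaks of stomach. Whether a sample pooled several embryos is not given in the sources used here. Each organ had 1 array, so every value describes 1 sample, no difference between organs could be tested, and no p-value is given.

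The mesothelium is the flat cell layer that covers the lungs, the gut and the other viscera. It forms from the splanchnic mesoderm and can release cells into the mesenchyme beneath it. Wt1 encodes a zinc finger transcription factor of the mesothelium and the urogenital ridge, Tcf21 a basic helix-loop-helix factor of visceral mesenchyme, and Msln, Upk3b and Upk1b encode surface proteins of mesothelial or urothelial cells. Osr1 and Osr2 are paired zinc finger genes related to Drosophila odd-skipped, and Osr1 is used in the foregut mesoderm and the kidney. Tlx1, also called Hox11, is a homeobox gene without which the mouse spleen does not form, and the spleen rudiment arises in the mesoderm beside the stomach. Wt1 and Tcf21 are also needed for the spleen in the mouse.

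Promoter sequences, 250 bases before to 50 after the annotated start, were found for 3 of the 8 genes in the RefSeq table of build GRCm38.p6. That of Tlx1 is shown because its organ difference was the widest, and that of Tcf21 because its level was highest at the other end of the series, in intestine. Capitals mark matches on either strand to CCAAT, to CANNTG, the E-box, to GGGCGG and to TATAAA. The motifs were chosen after the sequences had been read. The Tlx1 promoter lies at chr19:45150465-45150764 on the plus strand and that of Tcf21 at chr10:22820094-22820393 on the minus strand.
Tlx1: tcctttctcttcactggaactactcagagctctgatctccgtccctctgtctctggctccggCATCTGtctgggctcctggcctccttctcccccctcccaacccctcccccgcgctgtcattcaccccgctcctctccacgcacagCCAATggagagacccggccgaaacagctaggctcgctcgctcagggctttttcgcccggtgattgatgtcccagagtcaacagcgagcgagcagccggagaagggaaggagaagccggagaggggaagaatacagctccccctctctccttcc
Tcf21: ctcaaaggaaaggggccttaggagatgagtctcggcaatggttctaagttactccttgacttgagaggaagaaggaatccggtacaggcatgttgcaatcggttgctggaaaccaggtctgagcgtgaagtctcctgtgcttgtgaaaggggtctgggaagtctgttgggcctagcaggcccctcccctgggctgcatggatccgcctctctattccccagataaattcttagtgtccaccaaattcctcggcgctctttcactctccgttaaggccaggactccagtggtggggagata
The Tlx1 stretch held 1 match each to CCAAT and CANNTG, which do not overlap, and none to GGGCGG or TATAAA. These letters were present in 37.4% (CCAAT), 72.3% (CANNTG), 35.7% (GGGCGG) and 13.6% (TATAAA) of 32851 promoters of the same length. The Tcf21 stretch held none of the 4, and that of Upk3b held 1 CANNTG and none of the others. The bases were 61.7% G or C in Tlx1, 53.3% in Tcf21 and 58.7% in Upk3b, against a median of 52.7% over all promoters. A match describes the letters only.

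The lung array was dim and limits what can be said of lung. Its 75th percentile signal was 32.0, against 320.2 to 991.2 on the other arrays, and 9524 genes were well above background in lung, against 13278 to 14271 elsewhere. Levels are log2 signal relative to the 75th percentile of the array, and the lowest level well above background was −2.39 (lung), −5.75 (esophagus), −5.78 (stomach) and −6.92 (intestine). For a gene not well above background on an array, the higher of that lowest level and its own value was used, and the fold is written "at least". The only error the arrays hold is within an array: the median SD over 10 copies of a bright probe was 0.11 (lung), 0.09 (esophagus), 0.08 (stomach) and 0.07 (intestine) on the log2 scale, and the scanner software gives an error for each spot. Neither covers dissection, RNA or labelling. As a check of the labels, Nkx2-1 was highest in lung (11.9-fold above esophagus), Barx1 in stomach (11.9-fold above esophagus) and Cdx2 in intestine (at least 19.5-fold above lung); Sox2 was highest in esophagus, 1.38-fold above stomach.

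Of the 8 genes, 5 were well above background on all 4 arrays, Msln and Osr2 on 3, and Tlx1 on the stomach array alone. In these bulk samples fewer cells of a type and less RNA per cell cannot be told apart. The plot of probe levels by organ shows each value.

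**Figure D1:**
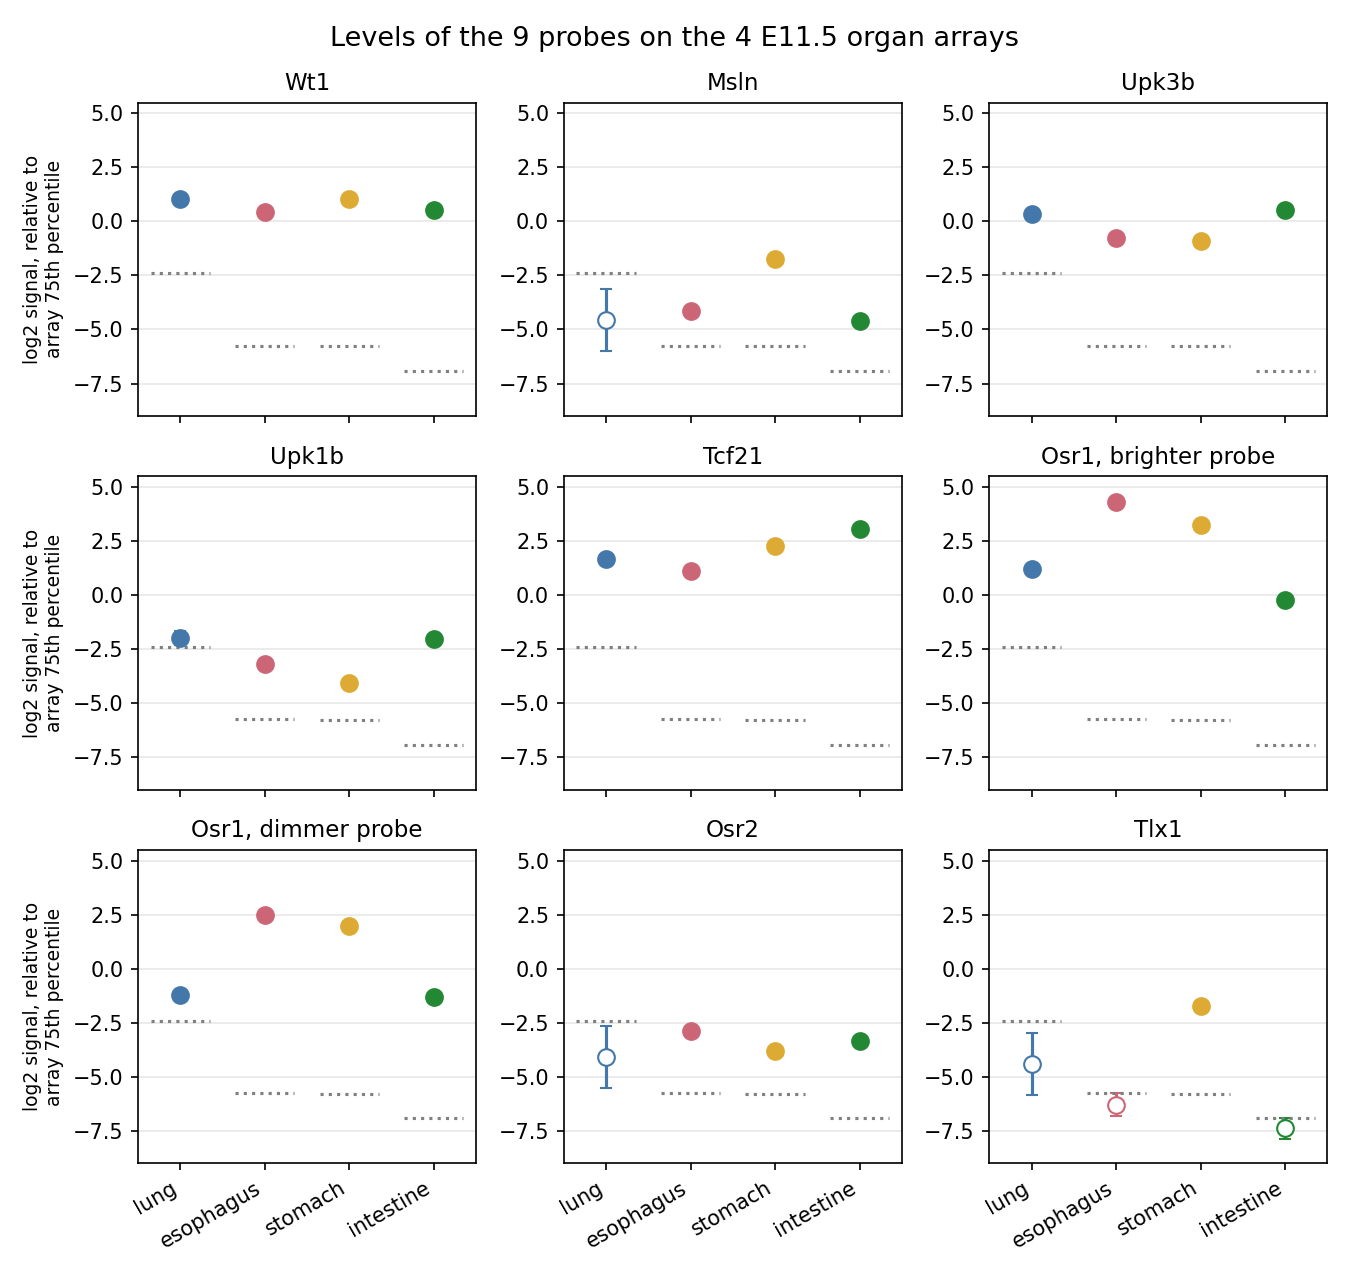
Level of each of the 9 probes (vertical axis, log2 signal relative to the array's 75th percentile) in lung, esophagus, stomach and intestine, 1 array each. Filled points were well above background and open points were not; bars are the scanner software's error on the log2 scale, and dotted lines are the lowest level well above background on that array. Tlx1 is filled in stomach alone, Osr1 is high in esophagus and stomach by both probes, and Wt1 is nearly level.

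Wt1 stood at nearly the same level in every organ. Its probe was spotted 10 times on each array, and the mean level was 1.02 ± 0.09 (lung), 0.46 ± 0.07 (esophagus), 1.05 ± 0.08 (stomach) and 0.53 ± 0.06 (intestine) (SD over 10 spots of 1 array). The spots ran from 0.89 to 1.18 in lung and from 0.91 to 1.17 in stomach, and these overlapped. They ran from 0.34 to 0.57 in esophagus and from 0.43 to 0.63 in intestine, which also overlapped and lay below every lung and stomach spot. The widest difference, esophagus 1.51-fold below stomach, was exceeded by that of 73.8% of the 9497 genes measured on all 4 arrays, whose median range was 1.83-fold. Which of lung and stomach was higher depended on the scaling: lung over stomach was −0.03 on the log2 scale, but 0.36 after centring each array at its median. That centring also put Wt1 past 2-fold for lung over esophagus, at 1.15 against 0.57 as scaled here. The median of lung over esophagus over these 9497 genes moved as well, to 0.96 from 0.37.

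**Figure D2:**
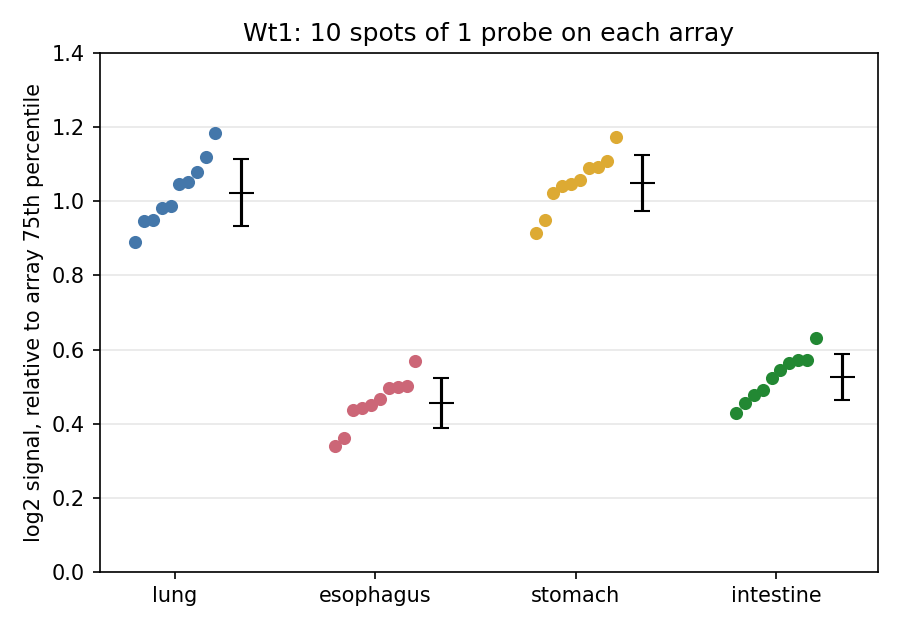
The 10 spots of the Wt1 probe on each array, in order of level (vertical axis, log2 signal relative to the array's 75th percentile), with the mean and SD over spots in black. The spots are copies on 1 array and not samples: lung and stomach spots lie between 0.89 and 1.18, esophagus and intestine spots between 0.34 and 0.63.

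Tcf21 was highest in intestine. Its processed signal, with the scanner's error, was 102.0 ± 10.3 (lung), 820.0 ± 82.0 (esophagus), 1561 ± 156 (stomach) and 8262 ± 826 (intestine). Relative to each array's 75th percentile, the levels were 1.67 (lung), 1.11 (esophagus), 2.28 (stomach) and 3.06 (intestine). Among the 3 gut segments the order followed the tube: esophagus was 2.25-fold below stomach and 3.86-fold below intestine, and stomach was 1.71-fold below intestine. Lung was 2.62-fold below intestine. Lung over esophagus was 0.56 on the log2 scale, but −0.24 under normexp background correction. Tcf21 had 1 probe, and its range of 1.95 was exceeded by 7.76% of the genes measured on all arrays.

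Msln, which encodes the cell surface protein mesothelin, was highest in stomach. Its signal was 1.34 ± 1.33 (lung), 21.3 ± 2.61 (esophagus), 97.0 ± 9.78 (stomach) and 40.7 ± 4.43 (intestine), and the levels were −4.58 (lung), −4.16 (esophagus), −1.72 (stomach) and −4.60 (intestine). The lung spot was not well above background. Stomach was 5.40-fold above esophagus and 7.37-fold above intestine, and at least 1.59-fold above lung. Under normexp, esophagus over stomach was −1.23 on the log2 scale against −2.43 as processed here, and stomach over intestine 2.10 against 2.88. The lung level, not well above background, then lay above stomach (−0.62 against −1.14), and no bound against lung could be given. Leaving lung aside, the margin of stomach over the next organ ranked 23 among 4679 genes highest in stomach. Esophagus and intestine differed by 0.45, whose sign changed under median centring (−0.05).

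Upk3b and Upk1b, which encode uroplakins, a transmembrane protein and a tetraspanin, ran together: both were high in intestine and lung and low in stomach and esophagus. Upk3b stood at 0.34 (lung), −0.77 (esophagus), −0.90 (stomach) and 0.53 (intestine), from signals of 40.5 ± 4.29 (lung), 222.4 ± 22.3 (esophagus), 171.1 ± 17.2 (stomach) and 1435 ± 144 (intestine). Upk1b stood at −2.0 (lung), −3.21 (esophagus), −4.05 (stomach) and −2.05 (intestine), from signals of 7.99 ± 1.79 (lung), 41.0 ± 4.43 (esophagus), 19.3 ± 2.38 (stomach) and 239.2 ± 24.0 (intestine). Its lung value lay close to the lowest level well above background on that array, −2.39.

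For Upk3b, stomach was 2.71-fold and esophagus 2.47-fold below intestine, and lung was 2.37-fold above stomach and 2.16-fold above esophagus. For Upk1b, stomach was 4.01-fold and esophagus 2.23-fold below intestine, and lung was 4.14-fold above stomach and 2.31-fold above esophagus. Under the 8 other processing settings, Upk3b kept 2-fold for lung over esophagus in 6 (lowest log2 value 0.69) and for lung over stomach in 7 (lowest 0.80). Upk1b kept it for lung over esophagus in 7 (lowest 0.90) and for lung over stomach in all 8. With 1 probe each, bright in these organs, neither gene could move when probes were averaged or the dim-probe filter was dropped. The deposited series table and kept outlier spots moved them little. Lung and intestine differed by less than the scanner's error for Upk1b, by 0.05, and the sign turned (−0.16) when the percentile was taken over probes bright on all arrays. Under normexp, Upk1b in lung over intestine was 1.20 and in stomach over intestine −0.59. After removal of each gene's mean, the profiles of Upk3b and Upk1b differed by a root mean square of 0.31 over 4 arrays, the least of the 21 pairs among the 8 genes that share at least 3 arrays. The other uroplakins on the array, Upk1a, Upk2 and Upk3a, were not well above background in lung. Of the 3 gut segments, Upk1a was highest in intestine (−3.45), and Upk2 (−3.64) and Upk3a (−3.98) were highest in esophagus. The list of liver genes, among them Alb and Afp, was also higher on the intestine array, where 4 of 6 measured genes stood 2-fold or more above the rest (1.11% of all genes did); its summed level, the log2 of the added linear levels, was 4.72 (lung), 3.30 (esophagus), 1.72 (stomach) and 5.93 (intestine). Of the 6, the number not well above background was 3 (lung), 1 (esophagus), 2 (stomach) and 0 (intestine); Ttr was read in intestine alone. The part of liver tissue in the uroplakin levels was not tested.

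Osr1, by its brighter probe, differed most between organs among the 5 of the 8 genes measured on all 4 arrays. Its brighter probe had signals of 74.9 ± 7.59 (lung), 7460 ± 746 (esophagus), 3057 ± 306 (stomach) and 860.0 ± 86.0 (intestine), or levels of 1.22 (lung), 4.30 (esophagus), 3.25 (stomach) and −0.20 (intestine). Its dimmer probe had 13.8 ± 2.05 (lung), 2129 ± 213 (esophagus), 1253 ± 125 (stomach) and 407.1 ± 40.8 (intestine), or levels of −1.22 (lung), 2.49 (esophagus), 1.97 (stomach) and −1.28 (intestine). Both probes put esophagus first and stomach next, well above lung and intestine. The range of the brighter probe, 4.50, ranked 57 among 9497 genes.

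Esophagus was 22.7-fold above intestine by the brighter Osr1 probe and 13.7-fold by the dimmer one, and stomach was 11.0-fold and 9.52-fold above intestine. Lung was 8.42-fold and 13.1-fold below esophagus, and 4.08-fold and 9.10-fold below stomach. The probes parted on the smaller differences. Esophagus was 2.06-fold above stomach by the brighter probe and 1.44-fold by the dimmer one, and lung was 2.69-fold above intestine by the brighter probe and 1.05-fold by the dimmer one. Heart muscle genes were higher on the same array: all 7 of the list, among them Myl7 and Mybpc3, stood 2-fold or more above the rest in esophagus (1.12% of all genes did), and their summed level was 3.22 (lung), 7.0 (esophagus), 1.42 (stomach) and 1.97 (intestine). In lung 3 of the 7 were not well above background, and 0 elsewhere. The part of heart tissue in the Osr1 level was not tested.

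Osr2, the paralog of Osr1 known from palate and joint development in the mouse, was dim. Its signal was 1.89 ± 1.88 (lung), 52.2 ± 5.59 (esophagus), 23.3 ± 2.87 (stomach) and 98.7 ± 10.1 (intestine), and the levels were −4.08 (lung), −2.86 (esophagus), −3.78 (stomach) and −3.33 (intestine). Lung was not well above background, and no fold against it could be given. Esophagus stood 1.90-fold above stomach and 1.38-fold above intestine, both short of 2-fold, and stomach was 1.37-fold below intestine. The sign of stomach minus intestine (−0.45) turned under normexp (0.60), and that of esophagus minus intestine (0.47) under median centring (−0.03). Over the 3 arrays that both measured, the profiles of Osr1 and Osr2 differed by a root mean square of 1.87.

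Tlx1 was measured in stomach and in no other organ. Its signal was 1.53 ± 1.52 (lung), 4.88 ± 1.80 (esophagus), 97.8 ± 9.88 (stomach) and 6.0 ± 2.03 (intestine), and the levels were −4.39 (lung), −6.28 (esophagus), −1.71 (stomach) and −7.37 (intestine). Only the stomach spot was well above background. Stomach was at least 37.1-fold above intestine and at least 16.5-fold above esophagus. Against lung, whose lowest readable level was higher, the bound was 1.60-fold. Leaving lung aside, the margin of stomach over the next organ, itself a lower bound, ranked 2 among 4679 genes highest in stomach. Under normexp, which adds an offset of 50 to every spot, esophagus over stomach was −1.56 and stomach over intestine 2.73 on the log2 scale. The lung level, not well above background, then lay above stomach (−0.48 against −1.21), and no bound against lung could be given.

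Other regulators of the spleen and the splanchnic mesoderm were read beside Tlx1. Of 9 genes on that list 8 were measured, and 3 stood 2-fold or more above the rest in stomach: Barx1, a homeobox gene of stomach mesenchyme, 11.9-fold, Isl1, a LIM homeobox gene, 3.16-fold and Nkx2-5, a homeobox gene of heart and spleen, 2.20-fold. Barx1, Isl1 and Nkx2-5 kept this under each of 8 other processing settings. Over all genes, 0.372% of 14507 were 2-fold above every other organ in stomach. Nkx2-5 was not well above background in lung and stood at −0.09 (esophagus), 1.05 (stomach) and −2.91 (intestine). Pancreas bud genes, whose tissue lies near the spleen rudiment, had a summed level of −0.36 (lung), 1.62 (esophagus), 1.82 (stomach) and 1.78 (intestine); Pdx1 was −3.65 in stomach and −4.08 in intestine, and Ptf1a was well above background in intestine alone. The sums were led by different genes. Gcg was the highest of the list in esophagus (1.26) and stomach, but stood at −0.24 in intestine. There Cpa1 was the highest (1.24), against −3.23 in esophagus and −2.85 in stomach. The near-equal sums of these 3 organs therefore do not show like levels of the pancreas bud genes. Of the 6, the number not well above background was 5 (lung), 3 (esophagus), 1 (stomach) and 0 (intestine). Those in esophagus were Pdx1, Ptf1a and Neurog3. The part of pancreas bud tissue in the Tlx1 level was not tested.

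The 8 genes were counted in each organ pair beside all named genes. Between stomach and intestine 5 of 8 were at least 2-fold apart, 3 higher in stomach (Msln, Osr1 and Tlx1) and 2 lower (Upk3b and Upk1b), where 12.4% of 13808 genes were (7.52% higher and 4.87% lower). Between esophagus and stomach 4 of 8 were, Osr1 higher in esophagus and Msln, Tcf21 and Tlx1 lower, against 9.90% of 13733 genes (5.63% higher and 4.27% lower). Between esophagus and intestine 4 of 7 were, Osr1 higher in esophagus and Upk3b, Upk1b and Tcf21 lower, against 20.6% of 13895 genes (11.9% higher and 8.71% lower). The pairs share arrays, so their counts are not independent.

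Over those of the 8 genes with a fold, the median absolute log2 difference was 1.72 between stomach and intestine, 0.98 between esophagus and stomach and 1.16 between esophagus and intestine, against 0.33, 0.35 and 0.48 over all genes. With lung fewer could be read. Over genes measured on all 4 arrays, the median log2 difference was 0.37 for lung over esophagus and 0.22 over stomach and over intestine. Lung and esophagus were at least 2-fold apart for 3 of 5 (25.6% of 10513 genes), lung and stomach for 3 of 7 (23.9% of 10503) and lung and intestine for 2 of 5 (20.6% of 10416). Upk3b and Upk1b were higher in lung than in esophagus and stomach, as 16.2% and 14.0% of genes were, and Osr1 was lower in lung than in either, as 9.42% and 9.87% were. Between lung and intestine Osr1 was higher in lung (12.2% of genes) and Tcf21 lower (8.40%). At 4-fold the counts were 4 for stomach over intestine (2.70% of genes), 2 for esophagus over stomach (2.26%) and 1 for esophagus over intestine (5.66%). With lung they were 1 over esophagus (3.99%), 2 over stomach (4.39%) and 0 over intestine (4.03%). At least 2-fold above every other organ stood 1 of the 8, Osr1 in esophagus, and only by its brighter probe, against 7.06% of 14507 genes in any organ and 1.12% in esophagus. Without the dim lung array this count was 5 of 8 (Msln, Upk3b, Upk1b, Osr1 and Tlx1), against 8.30% of 14503 genes. The plot of pair differences sets each gene beside the spread of all genes.

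**Figure D3:**
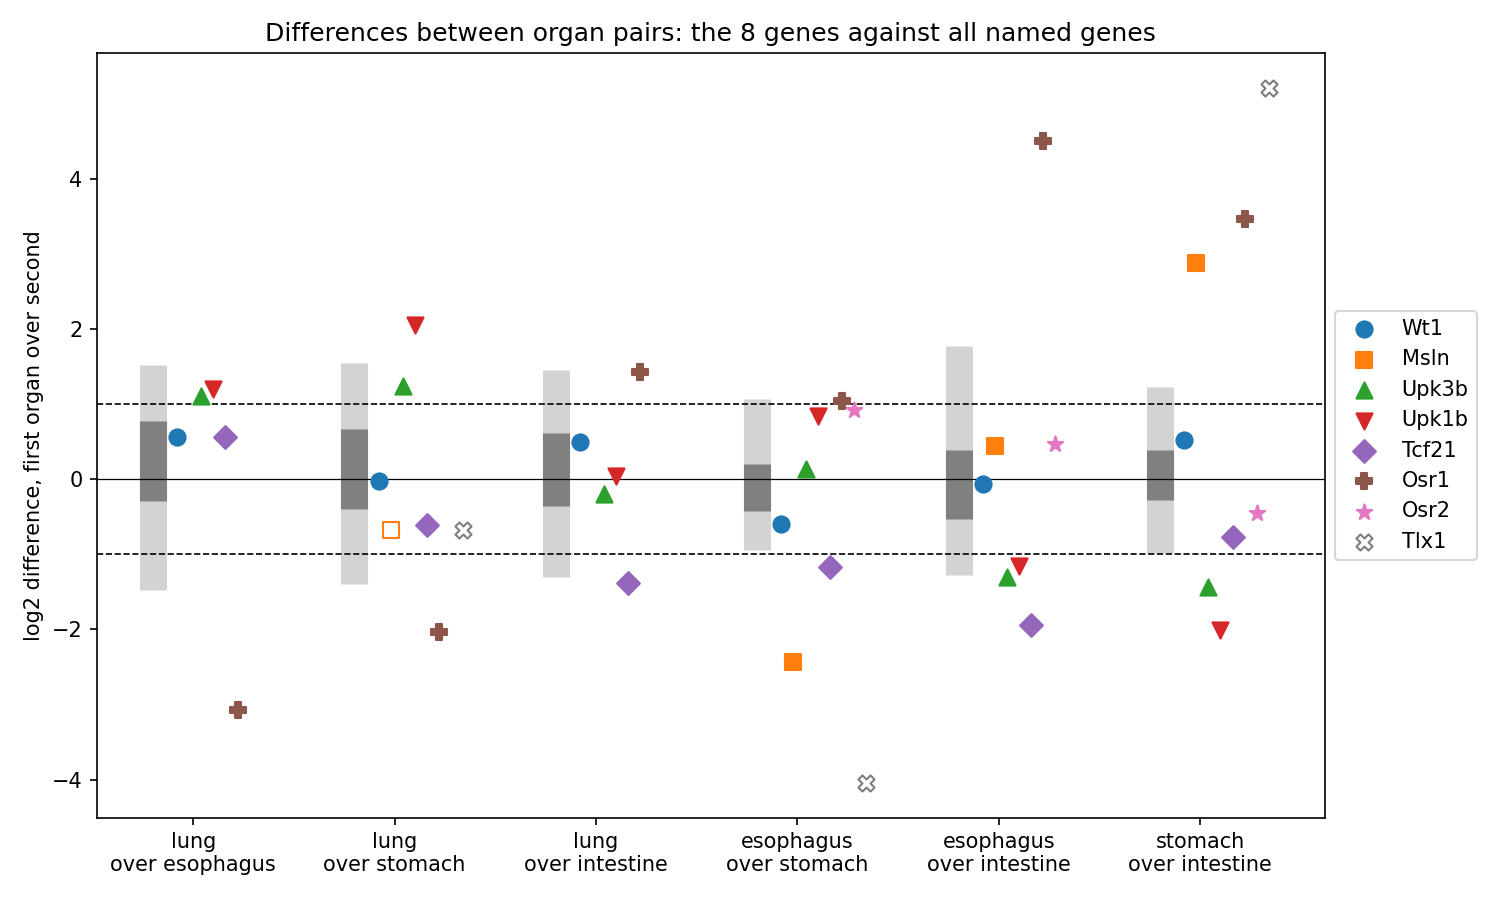
Log2 difference of the first organ over the second (vertical axis) for the 6 organ pairs. Dark bars hold the middle 50% of all genes with a fold, light bars run between percentiles 5 and 95, symbols are the 8 genes, open symbols are lower bounds and dashed lines mark 2-fold. Osr1 and Tlx1 lie farthest out, at 4.50 for esophagus over intestine and 5.21 for stomach over intestine.

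Further genes of the mesothelium gave no single order of the organs. Of 14 on the list 12 were well above background on some array, and 4 stood 2-fold or more above the rest, each in a different organ. In some organ 7.06% of all genes did so: 4.45% (lung), 1.12% (esophagus), 0.372% (stomach) and 1.11% (intestine). Gpm6a, a membrane glycoprotein, was 3.65-fold higher in lung, Dcn, the proteoglycan decorin, 2.52-fold in esophagus, Krt18, a simple-epithelial keratin that the gut lining also expresses, 2.10-fold in stomach and Aldh1a2, which makes retinoic acid, 2.50-fold in intestine. Krt18 kept 2-fold under 5 of 8 other settings and Dcn under 7. The median margin of the highest organ was 0.57 on the log2 scale for the list and 0.30 over all genes. Bnc1, a zinc finger gene of keratinocytes and mesothelium, stood at −1.70 (esophagus), 0.02 (stomach) and 0.23 (intestine) and was not well above background in lung. Lrrn4 stood at −1.41 (lung), −2.06 (esophagus), −2.55 (stomach) and −2.32 (intestine). Between stomach and intestine 2 of 12 were at least 2-fold higher in stomach and 1 lower, where 7.52% of all genes were higher and 4.87% lower. Esophagus over stomach gave 1 higher and 4 lower (5.63% and 4.27% of all genes). For esophagus over intestine it was 1 and 3 (11.9% and 8.71%). Lung over stomach gave 2 higher and 5 lower (14.0% and 9.87%). For lung over intestine it was 1 and 4 (12.2% and 8.40%), and for lung over esophagus 2 and 1 (16.2% and 9.42%).

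The genes whose profile over the organs came closest to each of the 8 were sought among all genes measured on the same arrays, by the root mean square difference of the centred log2 levels. For Osr1 they were Sox2 (0.33), Krt15 (0.43) and Nkx6-1 (0.44), among 9496 genes on 4 arrays. Krt15 stood at −0.84 (lung), 1.70 (esophagus), 0.06 (stomach) and −2.48 (intestine). The closest to Tcf21 were Dtx4 (0.05), Mtg1 (0.08) and Itga3 (0.08), to Upk3b Pcca (0.06), Nup43 (0.08) and St6galnac3 (0.10), and to Upk1b Icam4 (0.21), Cldn13 (0.23) and Igtp (0.24). To Wt1, with its flat course, G3bp1, Pcbp4 and Tmem120a each lay at 0.02. Over 3 arrays, without lung, Msln had C2cd4b (0.12), Pla2g2f (0.15) and Nwd1 (0.20) and Osr2 had Tacc1 (0.01), Sparcl1 (0.01) and Ugt1a6b (0.02), each among 12857 genes. With so few arrays many genes lie near any course, and the likeness is a description.

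The differences among esophagus, stomach and intestine were computed again under 8 other processing settings, and the plot of ranges over settings shows them. For genes with 1 probe bright on both arrays, averaging probes or dropping the dim-probe filter could not change a difference. The deposited series table and kept outlier spots changed it little. The tallies over 8 settings are therefore not 8 separate checks. Between stomach and intestine, Msln, Osr1, Tlx1 and Upk3b stayed at least 2-fold apart in the same direction under all 8, and Upk1b under 7. Between esophagus and stomach Msln, Tcf21 and Tlx1 did so under all 8 and Osr1 under 6. Between esophagus and intestine Upk3b, Tcf21 and Osr1 did so under all 8 and Upk1b under 7. Lung stayed at least 2-fold below esophagus and stomach for Osr1, and below intestine for Tcf21, under all 8. It stayed 2-fold above intestine for Osr1 under 6 (lowest log2 value 0.59).

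**Figure D4:**
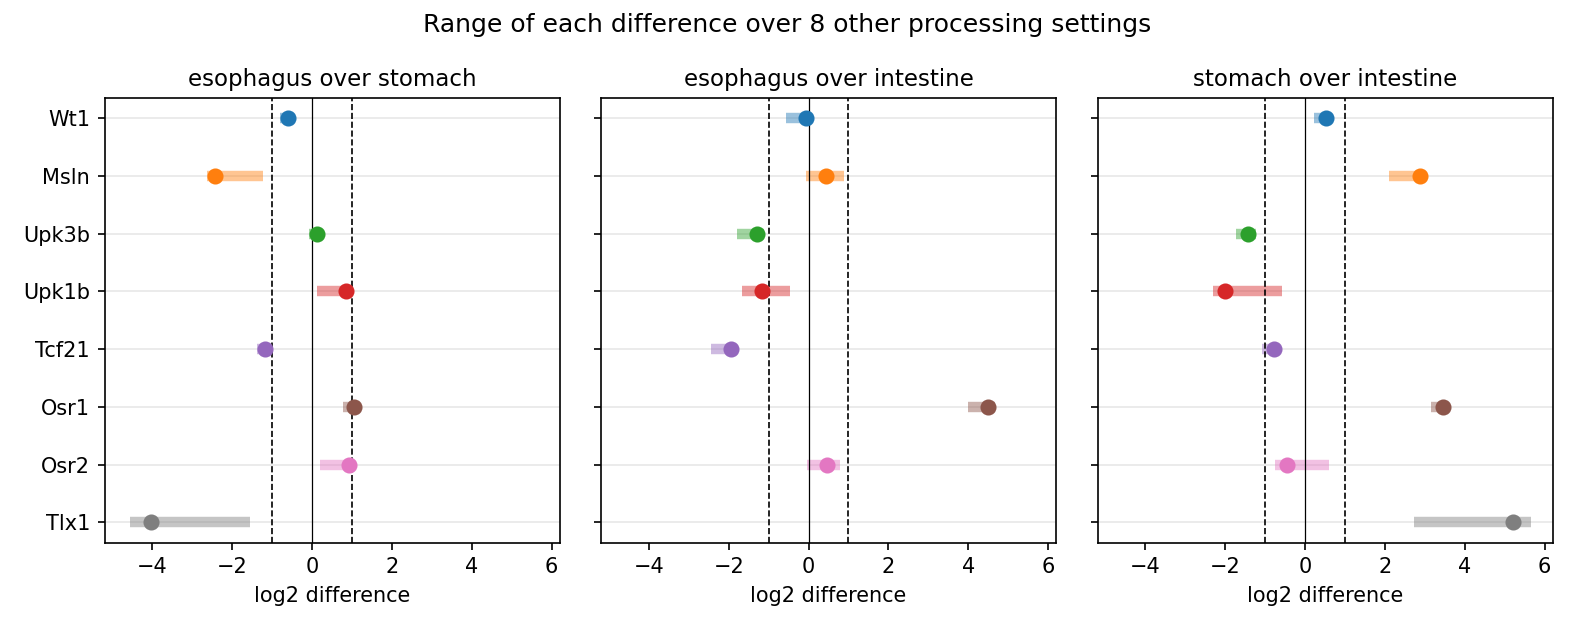
Log2 difference of the first organ over the second (horizontal axis) for each gene in 3 organ pairs. Points are the values given in the text, bars span these and the values under 8 other processing settings, and dashed lines mark 2-fold. Msln, Osr1 and Tlx1 keep beyond 2-fold for stomach over intestine, with lowest values of 2.10, 3.16 and 2.73.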

How the data were processed

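Total RNA of 4 organ primordia was labelled with Cy3 and hybridised to 1 Agilent array each, per the labels' protocols. The deposited scanner files hold spot intensity values, made with Feature Extraction 10.5.1.1 under protocol GE1_105_Dec08 for array design 014868 (build mm8), per the file headers; that software subtracted background and removed spatial trends, without scaling one array to another. The authors' deposited series table holds log2 values with each array's 75th percentile at 0 and column medians of −3.56 (lung), −2.97 (esophagus), −3.17 (stomach) and −3.47 (intestine); they follow the scanner signals.

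Outlier-flagged spots were dropped (no spot of the 9 probes had one), and copies of a probe were averaged. Of 41174 non-control probes, 69 were dropped for flags. Log2 signals were taken minus the 75th percentile over the 41105 left. Through the RefSeq gene table of GRCm38.p6, 24375 probes were given 1 symbol. A gene had its brightest probe. Spots count as well above background by the scanner's call. With 1 array per organ, 2-fold is a size and no test; the number of arrays limits precision. The genes and lists were chosen with earlier results of these data known. Named are the 8 genes, 3 closest genes for each measured on at least 3 arrays, and listed genes 2-fold above every other organ, up to 6 per list. Other listed genes with values (Bnc1, Lrrn4, Pdx1, Ptf1a, Gcg, Ttr, the other uroplakins) and the genes that check the labels were chosen after their values were seen. The lists are not printed in full, and some further listed genes are in the closing section. The files lack the mean spot signal, so normexp used the median spot signal. Python 3.11.15, numpy 2.4.6, pandas 2.3.3, R 4.3.3 and limma 3.58.1 were used. The 2-fold calls were also run on simulated levels whose changed genes lay well above every array's lowest level. That run does not cover dim genes or the scaling of arrays.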

Additional observations from a re-analysis of the deposited data

How the results depend on the processing

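The counts of the 8 genes at least 2-fold apart were computed again under each array centred on its median, a percentile over probes bright on all 4 arrays, quantile normalization, normexp with an offset of 50, the authors' deposited series table, the mean of all probes, outlier spots kept, no filter on dim probes, a 4-fold limit and, chosen after seeing the data, the dimmer Osr1 probe. For lung over esophagus the count of 3 (25.6% of all genes) became 5 with median centring (49.5%) and with no filter (44.3%). It became 1 with the bright-probe percentile (22.3%) and at 4-fold (3.99%). For lung over stomach the 3 (23.9%) became 5 with no filter (42.7%). For lung over intestine the 2 (20.6%) became 1 when all probes were averaged (18.9%) and for the dimmer Osr1 probe, and 0 at 4-fold (4.03%). At 4-fold esophagus over stomach gave 2 (2.26% of all genes) and esophagus over intestine 1 (5.66%). All other counts lay within 1.5 times the reported one. Median centring moved the median difference of all genes measured on every array by 0.59 for lung over esophagus, 0.39 for lung over stomach, −0.50 for esophagus over intestine, −0.30 for stomach over intestine and −0.20 for esophagus over stomach; lung over esophagus, stomach and intestine moved by −0.58, −0.53 and −0.65 under normexp, by −0.30, −0.20 and −0.21 with the bright-probe percentile, by −0.15, −0.08 and −0.13 under quantile normalization and by −0.18, −0.14 and −0.10 when all probes were averaged. Without lung, Tlx1 in stomach stood at least 4.04 (log2) above the next organ. The highest organ of Wt1 and Upk1b changed under 1 of 8 settings and that of Osr2 under 2. The 21 closest genes are the same under median centring by construction. No paired analysis was possible because each organ had 1 array, and no array could be left out as a replicate. The dim lung array limits every low level.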

Other observations

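Further listed genes of neighbouring tissues gave these values. Of all genes, 7.06% stood 2-fold or more above the rest in some organ: 4.45% (lung), 1.12% (esophagus), 0.372% (stomach) and 1.11% (intestine). Of 11 genes of the urogenital ridge and kidney 9 were well above background on some array, but in lung Eya1 and Foxd1 alone were. Foxd1, a forkhead gene of kidney stroma, was 7.94-fold higher in esophagus than in the next organ, Six2 4.88-fold higher in stomach and Lhx9, a LIM homeobox gene, at least 2.94-fold higher in stomach. Pax8 and Emx2 were not well above background on any of the 4 arrays. The summed level of the list was 0.93 (lung), 2.46 (esophagus), 1.38 (stomach) and −0.02 (intestine). Of the 11, the number not well above background was 9 (lung), 2 (esophagus), 2 (stomach) and 3 (intestine). In esophagus Foxd1 alone stood at 1.98, and the next gene, Eya1, at −0.30.

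Of 7 epicardial genes, markers of the mesothelium of the heart, 5 stood 2-fold or more above the rest, where 7.06% of all genes did: Gata5 (5.84-fold) and Tbx5 (2.04-fold) in lung, Sema3d (2.25-fold) and Tbx18 (2.04-fold) in esophagus and Aldh1a2, also on the mesothelium list, in intestine. Tbx5 stayed 2-fold above the rest in lung under 4 of 8 other settings and was highest in esophagus under normexp; Tbx18 stayed so under 5 and Sema3d under 6. Of 6 genes of the lung mesenchyme, Wnt2 was 3.6-fold higher in lung, and Tbx5 stood on this list too. Of the pancreas bud list Cpa1 was at least 12.4-fold higher in intestine. Of the 5 genes of joint, palate and limb, which include Osr2, Pax9 was at least 3.30-fold higher in esophagus and Msx1 2.03-fold higher in stomach. Among the liver genes Apoa1 was at least 4.39-fold, Afp 2.35-fold, Apob at least 2.13-fold and Alb 2.0-fold higher in intestine. Apob and Msx1 kept 2-fold under 5 of 8 other settings, Lhx9 under 6, and Six2, Wnt2, Pax9, Apoa1 and Alb under 7.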
